A study of Homo sapiens with 18 samples.

Results

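Clones 1KI9 and 1D5, both labelled as carrying GATA1s, were compared at day 4 of differentiation, with 3 libraries of each clone, 6 of the 18 libraries in the series. The 3 day-4 libraries of another clone, FL, which carries full-length GATA1, were used only to place each difference: they say which GATA1s clone lay farther from FL. All clones derive from HUDEP1, a human erythroid progenitor line immortalised with papillomavirus oncogenes under doxycycline control. RNA was read as poly(A)-selected, stranded libraries, and each clone was also sampled during expansion. Every day-4 group was grown with 50 ng/mL stem cell factor, 3 U/mL erythropoietin and 1 µg/mL doxycycline, in medium with 2% fetal bovine serum, 3% AB serum, 10 µg/mL insulin, 3 U/mL heparin and 1 mg/mL holo-transferrin. Expansion cells were kept in serum-free medium with 1 µM dexamethasone, 1 µg/mL doxycycline, 50 ng/mL stem cell factor and 3 U/mL erythropoietin. Each genotype name stands for single clones (1KI9, 1D5 and FL are 1 clone each), so a clone difference between 1KI9 and 1D5 is not a difference of GATA1 form, and genotype and clone cannot be told apart in any setting against FL. The labels do not say how GATA1s was introduced. Nothing in the labels says that replicates were separate cultures. The p-values therefore rest on the spread among libraries within groups, which may be technical. The gene tests (limma) pooled that spread over all 6 groups, expansion and FL included. A gene that varies in expansion can therefore go uncalled though its day-4 clones lie apart. Conversely, a gene steady or silent in other groups can get an SE smaller than its day-4 spread alone would give.

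GATA1 is the zinc finger transcription factor that switches on globin, heme and red cell membrane genes and holds down genes of the stem cell, mast cell and myeloid programmes. GATA1s starts at an internal methionine and lacks the N-terminal activation domain, while both zinc fingers remain. Cells that depend on it make red cells poorly, and the same truncation is found in the leukaemia and transient myeloproliferation of children with Down syndrome, where megakaryocyte precursors accumulate.

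Erythroid identity was checked first: all 12 erythroid markers (among them HBA1, ALAS2, SLC4A1, KLF1 and TFRC) averaged at least 1 in each clone. Values are the authors' scaled TPM, a length-corrected share of transcripts with a further scaling, and read depth is unknown. The summed value of the 12 markers ran from 70442 to 79909 in 1KI9, from 124740 to 142700 in 1D5 and from 265650 to 282400 in FL. Lymphocyte markers summed to at most 0.78 in any day-4 library, and the progenitor markers HLF and FLT3 were listed at 0. Library totals over the listed genes ran from 814583 to 857123 in 1KI9 and from 874292 to 945379 in 1D5, of which 1D5 replicate 2 had the highest. In bulk RNA, fewer cells of a type and less RNA per cell cannot be told apart.

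GATA1 transcripts had values of 941, 934 and 901 in 1KI9, against 1043, 1102 and 1033 in 1D5, and 236, 235 and 221 in FL. The GATA1s clones did not overlap, and the log2 difference (1KI9 minus 1D5, of values with 1 added, throughout) was -0.19 ± 0.06 (SE, limma adjusted p = 0.025). That call was lost when all libraries were rescaled to a common total, and when 1D5 replicate 2 or any 1KI9 library was left out. Since both clones are labelled GATA1s and the value sums all GATA1 transcripts, it cannot verify the labels.

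Across 11083 genes tested with limma and Benjamini-Hochberg adjustment at a threshold of 0.05, 1381 genes (12.5%) were higher in 1KI9 than in 1D5 and 742 (6.69%) were lower. Most differences were small: the median absolute log2 difference among the 2123 called genes was 0.39, and 1973 of them (92.9%) were under 1. At least 2-fold higher in 1KI9 were 91 genes (0.821%), and at least 2-fold lower were 59 (0.532%). The median over all tested genes was 0.05, and 65.05% of calls were higher in 1KI9. The split depended on the scaling: 50.6% of calls were higher with median-of-ratios scaling (1099 higher, 1074 lower, median 0.00) and 84.9% with all libraries rescaled to a common total (2704 higher, 482 lower, median 0.14). Leaving out 1KI9 replicate 1 gave 908 higher calls, leaving out 1KI9 replicate 3 gave 817 higher and 465 lower, and leaving out 1D5 replicate 2 gave 865 higher. The 30 genes named for their size, described next, kept their direction and their call under all 20 alternatives. They were picked for large differences without overlap in these same libraries, so they were the least likely to change.

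The largest difference upward in 1KI9 was that of NEO1, which encodes neogenin, a receptor for netrins and repulsive guidance molecules (chr15:73051710-73305206, hg38). It had values of 46.3, 45.1 and 49.9 in 1KI9, against 0.37, 0.42 and 0.43 in 1D5, and 1.41, 1.07 and 1.41 in FL. NEO1 was thus near absent in 1D5 and FL and plainly present in every 1KI9 library (log2 difference 5.10 ± 0.12, SE, limma adjusted p = 2.1e-15). RNF182, a ubiquitin ligase, had values of 27.9, 28.6 and 30.5 in 1KI9, against 2.27, 1.67 and 1.83 in 1D5, with FL between them at 5.34 to 5.87 (3.37 ± 0.08). PAPSS1 makes the sulfate donor used to modify proteins and glycans. It was at 19.9, 19.6 and 19.4 in 1KI9 and at 2.35, 1.43 and 1.60 in 1D5 (2.90 ± 0.13), again without overlap.

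Several others are best known from white blood cells. VSIG4, a complement receptor of macrophages, was at 28.7, 27.8 and 27.1 in 1KI9, against 3.26, 2.80 and 3.48 in 1D5, and 0.02 to 0.04 in FL (2.79 ± 0.16). GPNMB, a glycoprotein of lysosomes and melanosomes, was at 32.3, 31.7 and 32.0 in 1KI9, against 5.36, 4.84 and 5.58 in 1D5 (2.40 ± 0.15). TYROBP, the signalling adaptor of many myeloid receptors, was at 10.5, 8.47 and 8.66 in 1KI9, against 1.81, 1.11 and 1.17 in 1D5, and was listed at 0 in all FL libraries (2.12 ± 0.15). In each of these genes 1D5 lay between 1KI9 and FL, so 1KI9 was the clone farther from FL. The same order held for MS4A6A (2.53), the cell cycle gene CCNA1 (2.37), ARHGDIB (2.29), the tetraspanin CD53 (2.28), the phosphatase PTPN6, also called SHP-1 (2.22), and the semaphorin receptor PLXNC1 (2.13). PKHD1L1 (2.72) and GNA15, a G protein subunit of blood cells (2.50), completed the 15 with HPGDS, taken up with the mast cell genes. The highest adjusted p among the 15 was 3.6e-06, for HPGDS.

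**Figure D1:**
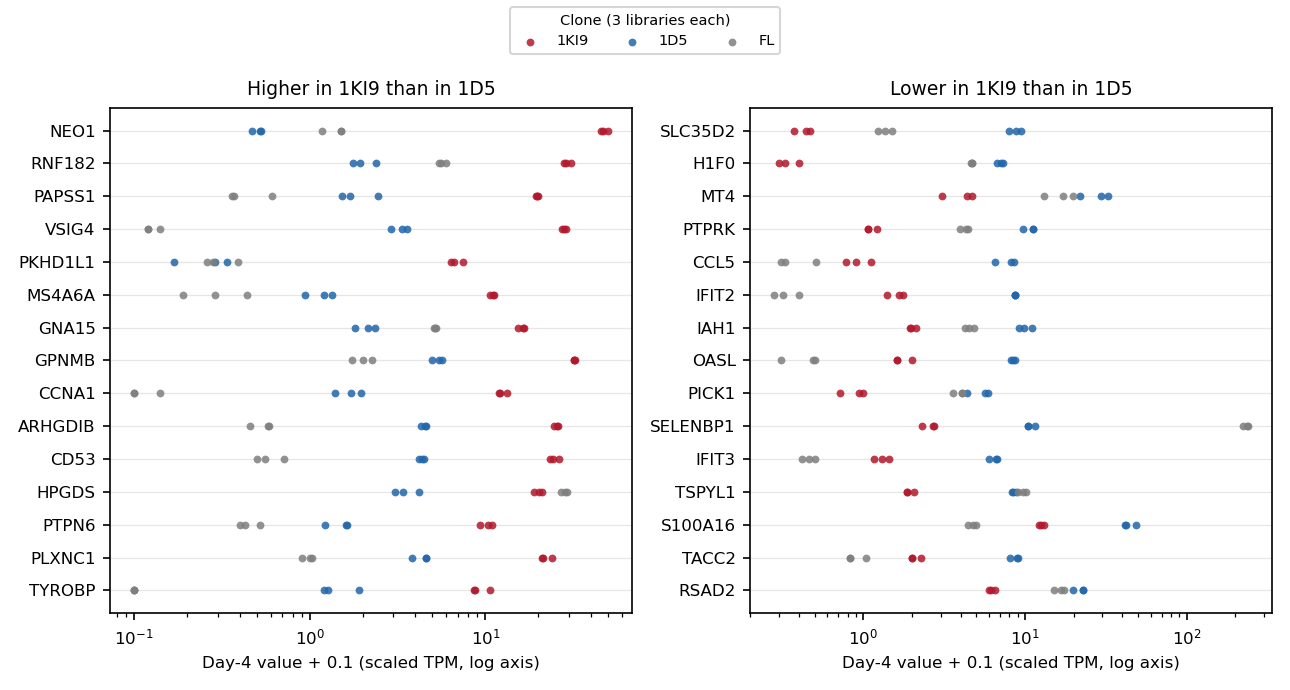
Day-4 value plus 0.1 (scaled TPM, log axis) of the 15 genes with the largest called difference in each direction among genes whose clones do not overlap and whose mean is at least 5 in the higher clone. Each point is a library (1KI9 red, 1D5 blue, FL grey, 3 each); NEO1 sits at 45.1 to 49.9 in 1KI9 and at 0.37 to 0.43 in 1D5, and FL lies on the 1D5 side of most genes on the left but on either side on the right.

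Genes lower in 1KI9 were led by SLC35D2, a nucleotide sugar transporter, at 0.27, 0.34 and 0.37 in 1KI9, against 8.74, 9.40 and 7.91 in 1D5, and 1.14 to 1.41 in FL (-2.87 ± 0.11, limma adjusted p = 2.9e-12). H1F0, the linker histone H1.0 of cells leaving the cycle, was at 0.23, 0.20 and 0.30 in 1KI9, against 6.61, 7.23 and 7.04 in 1D5, and 4.55 to 4.61 in FL (-2.68 ± 0.11). For H1F0, FL lay between the clones, nearer to 1D5. PTPRK, a receptor tyrosine phosphatase, was at 1.11, 0.97 and 0.97 in 1KI9, against 11.2, 9.57 and 11.1 in 1D5, with FL between them at 3.84 to 4.36 (-2.52 ± 0.13). The chemokine CCL5 was at 0.80, 1.01 and 0.68 in 1KI9, against 6.39, 8.07 and 8.40 in 1D5, and 0.21 to 0.41 in FL (-2.23 ± 0.09). For CCL5 both clones lay above FL, 1D5 farther than 1KI9. The others were the metallothionein MT4 (-2.55), IFIT2, IFIT3, OASL and RSAD2, taken up with the interferon genes, the esterase IAH1 (-1.91), PICK1 (-1.79), SELENBP1, TSPYL1 (-1.73), the calcium-binding S100A16 (-1.73) and TACC2 (-1.68). No gene was listed at 0.1 or less in every library of 1 clone and at 5 or more in every library of the other.

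Set beside FL, 1KI9 was the more distant clone for most genes higher in it than in 1D5, but less regularly for genes lower in it. Against FL itself, 8468 of 11083 genes (76.4%) were called in 1KI9 and 7882 (71.1%) in 1D5, contrasts that share the FL libraries. Of the 2123 genes called between the clones, 1D5 lay between 1KI9 and FL in 1473 (69.4%), 1KI9 lay between 1D5 and FL in 342 (16.1%), and FL lay between the clones in 308 (14.5%). Over all tested genes those orders took 61.9%, 29.5% and 8.54%. Measured as distance, 1KI9 was farther from FL in 1231 of the 1381 genes called higher (89.1%) and in 415 of the 742 called lower (55.9%), against 66.6% of all tested genes. Among genes at least 2-fold higher, 68 of 91 had 1D5 in the middle, whereas the 59 at least 2-fold lower split into 20 with 1D5, 20 with 1KI9 and 19 with FL in the middle. With all libraries rescaled to a common total, 2587 genes had 1D5 in the middle and the share of lower calls with 1KI9 farther was 41.5%, against 68.3% with median-of-ratios scaling. Leaving out 1KI9 replicate 3 gave 868, 209 and 205 genes in the 3 orders, and leaving out 1D5 replicate 2 gave 964 with 1D5 between.

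Gene lists were described by how many measured members were called in each direction and by their median log2 difference, to be read against 12.5% called higher, 6.69% called lower and a median of 0.05 over all tested genes. In the lysosomal, monocyte and mast cell lists more than 50% of members were called higher in 1KI9, and in the interferon-induced and stress-response lists more than 50% were called lower.

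**Figure D2:**
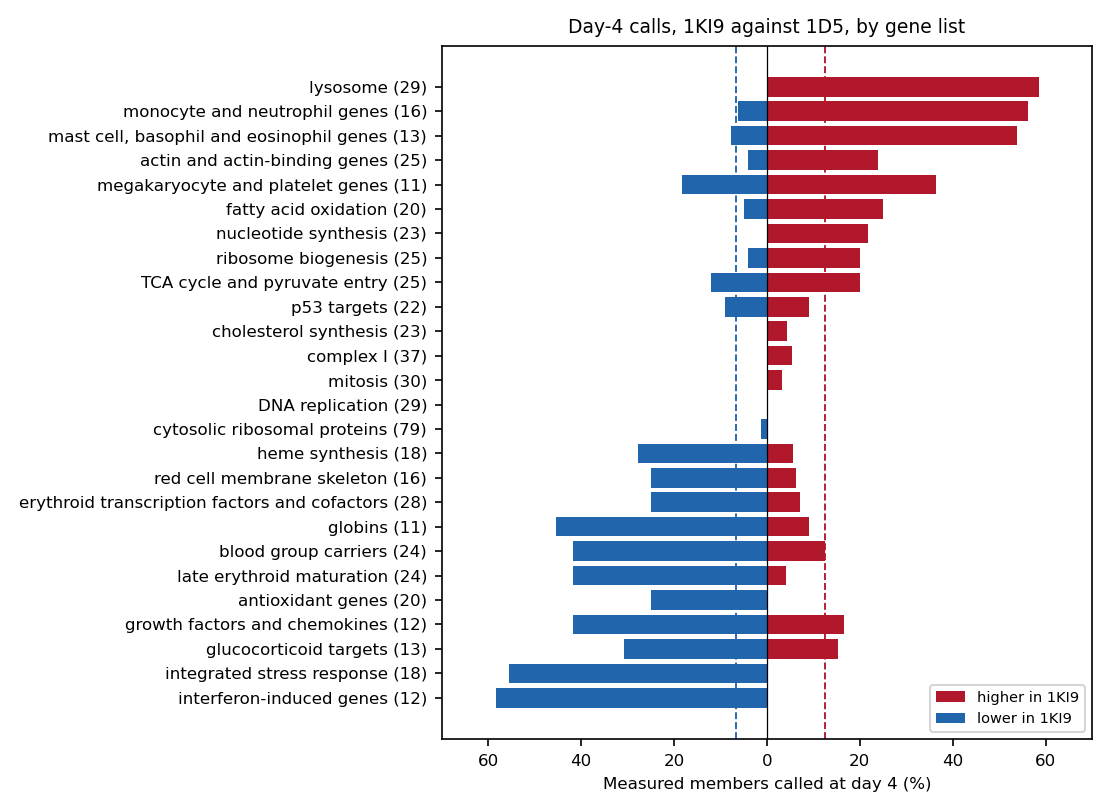
Percentage of measured members called higher (red, to the right) or lower (blue, to the left) in 1KI9 than in 1D5 at day 4, for 26 gene lists, with the number of members tested in brackets. Dashed lines mark the share over all tested genes, 12.5% higher and 6.69% lower; lysosome has 17 of 29 higher and 0 lower, and the interferon-induced list has 0 of 12 higher and 7 lower.

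Of 29 lysosomal genes tested, 17 were higher in 1KI9 and 0 were lower, with a median of 0.31. Depending on the alternative, 14 to 22 were higher and at most 1 was lower. LAMP2, a protein of the lysosomal membrane, was at 104, 102 and 110 in 1KI9, against 81.2, 67.0 and 76.4 in 1D5, and 36.9 to 39.6 in FL (0.49 ± 0.08, SE, limma adjusted p = 0.00017). The clones did not overlap for LAMP2, and 1D5 lay between 1KI9 and FL. CTSA, the protective protein of sialidase and galactosidase, was at 742, 744 and 718 in 1KI9, against 579, 588 and 564 in 1D5 (0.35 ± 0.07). The protease CTSD (0.35) and the glycosidase GLB1 (0.40) were higher as well, by less than 1.5-fold. Larger were the cathepsins CTSS, at 12.96, 11.9 and 12.1 in 1KI9 against 5.06, 4.37 and 4.70 in 1D5 (1.22), and CTSH, at 3.45, 3.13 and 3.50 in 1KI9 against 0.88, 1.41 and 1.16 in 1D5 (1.03).

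Among monocyte and neutrophil genes, 9 of 16 tested were higher in 1KI9 and 1 was lower, with a median of 0.79. SPI1, the PU.1 factor that drives myeloid cells and opposes GATA1, was at 11.96, 10.6 and 10.8 in 1KI9, against 5.35, 5.32 and 5.04 in 1D5, and 0.90 to 1.46 in FL (0.96 ± 0.16, SE, limma adjusted p = 0.00034). Its clones were well apart and all lay above FL. CSF2RB, the shared receptor chain for interleukin-3, interleukin-5 and GM-CSF, was at 22.7, 22.2 and 21.2 in 1KI9, against 7.83, 8.24 and 8.07 in 1D5 (1.35 ± 0.19). LCP1, an actin-bundling protein of white cells, was at 114, 116 and 121 in 1KI9, against 52.3, 49.3 and 52.0 in 1D5 (1.18 ± 0.11). Lysozyme, LYZ, was at 17.4, 18.1 and 16.9 in 1KI9, against 7.02, 5.36 and 5.69 in 1D5 (1.40 ± 0.44, adjusted p = 0.033), a call lost when any clone library was left out. FCGR2A (0.94), CD33 (0.94) and the protease PRTN3 (0.64) were also higher, and the transcription factor CEBPB was lower (-0.50).

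The 8 monocyte and neutrophil markers, CD14, CD68, LYZ, CSF1R, MPO, ELANE, ITGAM and TYROBP, gave sums of 395 to 418 in 1KI9, 329 to 350 in 1D5 and 43.4 to 46.9 in FL. CD68, a lysosomal glycoprotein, made up most of that sum, at 389, 379 and 369 in 1KI9 and 319, 343 and 324 in 1D5 (0.20 ± 0.15, adjusted p = 0.37, not called). CD14, MPO and ITGAM have no entry in the table used here. Whether a minority of cells of another type carried these genes was not tested.

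Mast cell, basophil and eosinophil genes had 7 of 13 members higher in 1KI9 and 1 lower, with a median of 0.58. SIGLEC6, a sialic acid receptor of mast cells, was at 74.1, 70.4 and 73.2 in 1KI9, against 20.1, 17.8 and 20.8 in 1D5, and 1.01 to 1.05 in FL (1.84 ± 0.10, SE, limma adjusted p = 2.4e-10). The alpha chain of the IgE receptor, FCER1A, was at 3.66, 3.88 and 3.51 in 1KI9, against 0.63, 0.61 and 0.56 in 1D5 (1.55 ± 0.11). HDC, which makes histamine, was at 15.9, 15.4 and 16.1 in 1KI9, against 7, 3.99 and 6.62 in 1D5 (1.32 ± 0.13). These 3 genes were high in 1KI9, intermediate in 1D5 and lowest in FL.

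HPGDS, the prostaglandin D synthase of blood cells, kept another order: 20.2, 20.8 and 18.8 in 1KI9, 2.97, 4.07 and 3.30 in 1D5, and 28.4, 26.7 and 28.9 in FL (2.24 ± 0.25). Here 1KI9 lay between 1D5 and FL, and 1D5 was the clone farther from FL. PRG2, the eosinophil major basic protein, was at 30.1, 31.6 and 29.1 in 1KI9 and 16.2, 17.7 and 15.96 in 1D5 (0.83), both far under FL at 302 to 316. The tryptase TPSB2 (0.86) and the transcription factor MITF (0.58) were higher too. The lower member was GATA1. The 8 markers of these cells summed to 318 to 340 in 1KI9, 181 to 190 in 1D5 and 351 to 369 in FL, with MS4A2, the beta chain of the IgE receptor, listed at 0 throughout and CPA3 and CLC without an entry. TPSB2 has near-identical copies, so its level is uncertain. Their part in the result was not tested.

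Megakaryocyte and platelet genes did not move one way. The collagen receptor GP6 (0.63), the integrin ITGA2B (0.55), PLEK (0.51) and CD63 (0.27) were higher, THBS1 (-0.77) and ITGB3 were lower, and 5 of 11 tested were not called.

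Many red cell genes were lower in 1KI9 than in 1D5 and lower in both than in FL. Globin transcripts made up 13.3%, 12.96% and 12.4% of the total in the 1KI9 libraries, against 19.6%, 20.6% and 19.3% in the 1D5 libraries. The FL libraries stood at 38.2% to 39.4%. Means were 12.9% ± 0.435 in 1KI9 and 19.8% ± 0.668 in 1D5 (SD, n = 3 each), a difference of -6.92 percentage points. The clones did not overlap, and the exact two-sided permutation p was 0.1, the smallest that 3 against 3 libraries allow. HBA2, an alpha globin gene, was at 12275, 12149 and 10021 in 1KI9, against 23338, 26471 and 24224 in 1D5 (-1.11 ± 0.19, SE, limma adjusted p = 0.00038). HBA1 encodes the same protein and differed by -1.01 ± 0.15.

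The globin list, 11 genes tested with AHSP (not called) among them, had 5 lower and 1 higher, with a median of -0.62. HBM (-0.85) and HBQ1 (-0.62), alpha-like globins, were lower. HBG2, a fetal gamma globin, was lower by a smaller margin (-0.64 ± 0.21, limma adjusted p = 0.044), a call lost under several alternatives, whereas the delta globin HBD was higher at 11.8, 10.8 and 10.3 in 1KI9 against 6.39, 7.16 and 6.31 in 1D5 (0.65 ± 0.14). Not called were HBB (-0.95, adjusted p = 0.055), HBG1 (-0.55, adjusted p = 0.054), the embryonic HBE1 (-0.41, adjusted p = 0.48) and the embryonic HBZ (0.56, adjusted p = 0.27). HBE1 did not overlap between the clones at day 4, at 12535 to 13440 in 1KI9 and 16440.5 to 18688 in 1D5. In the FL expansion libraries, which enter the pooled spread, HBE1 ran from 283 to 1184 TPM. HBZ was at 315, 325 and 279 in 1KI9 and 200, 224 and 198 in 1D5, against 20422 to 22920 in FL. Globin genes share sequence between copies, so single-gene values are uncertain.

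The balance of globins differed as well as their amount. Gamma globin over alpha globin was 3.14 ± 0.183 in 1KI9, 2.35 ± 0.104 in 1D5 and 1.58 in FL on average (SD, n = 3 each). The 1KI9 and 1D5 libraries did not overlap (exact permutation p = 0.1, the smallest possible), and the 1KI9 to 1D5 ratio of means was 0.481 for summed alpha globin and 0.639 for summed gamma globin. Summed gamma globin and the globin share also count the entry of a gene model over HBG1 and HBG2, which the globin list leaves out. Epsilon over gamma globin was 0.182 in 1KI9 and 0.155 in 1D5, both below FL at 0.330. AHSP, the chaperone of free alpha globin, did not separate the clones, at 183, 178 and 166 in 1KI9 and 167, 199 and 176 in 1D5 (-0.04, adjusted p = 0.93), against 1234 to 1264 in FL.

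**Figure D3:**
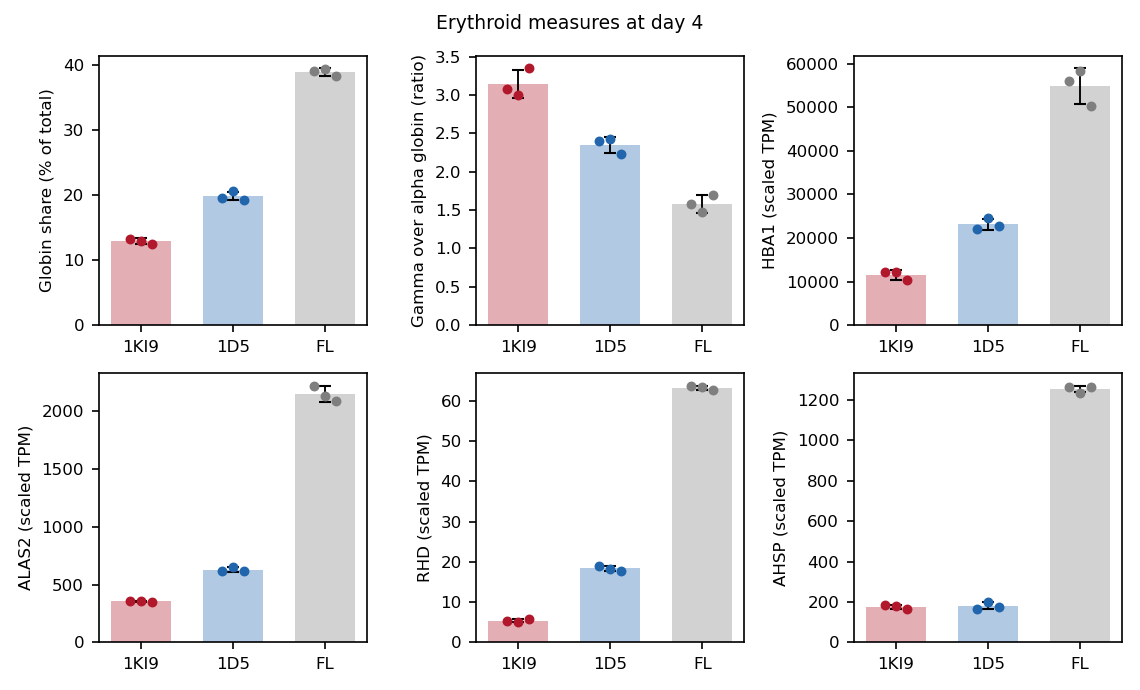
Globin share of the total (%), gamma over alpha globin (ratio) and the values of HBA1, ALAS2, RHD and AHSP (scaled TPM) at day 4; bars are means, error bars SD, points the 3 libraries of each clone. 1KI9 lies below 1D5 and both below FL in every panel but the globin ratio, where 1KI9 is highest, and AHSP, where 1KI9 and 1D5 overlap.

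Blood group carriers had 10 of 24 members lower and 3 higher, with a median of -0.16. RHD, the Rh D antigen (chr1:25272393-25330445 in the annotation used), was at 5.38, 5.05 and 5.78 in 1KI9, against 19.1, 18.3 and 17.7 in 1D5, and 62.6 to 63.8 in FL (-1.60 ± 0.24, SE, limma adjusted p = 0.00014). The 3 clones formed separate steps for RHD. RHCE, its near-identical neighbour, was at 5.06, 4.99 and 5.28 in 1KI9 and 8.86, 9.29 and 8.83 in 1D5 (-0.71, adjusted p = 0.034, lost under several alternatives), and reads of the pair may be shared. GYPB, a glycophorin, was at 139, 148 and 138 in 1KI9, against 234, 233 and 219 in 1D5 (-0.69), and AQP1, the water channel, was lower too (-0.81). The hyaluronan receptor CD44, which red cell precursors lose as they mature, was higher at 4.16, 3.77 and 3.99 in 1KI9 against 1.09, 1.25 and 0.52 in 1D5 (1.37 ± 0.12). CD55 (0.37) and BSG (0.21) were the other higher members.

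Late maturation genes had 10 of 24 members lower and 1 higher, with a median of -0.23. SELENBP1, the selenium-binding protein of maturing red cells, was at 2.19, 2.58 and 2.62 in 1KI9, against 11.5, 10.4 and 10.3 in 1D5, and 221 to 240 in FL (-1.76 ± 0.18, SE, limma adjusted p = 1.4e-06). The glucose transporter SLC2A1 (-0.76), BPGM, which makes the oxygen-release regulator bisphosphoglycerate (-0.68), the carbonic anhydrase CA2 (-0.61) and the ubiquitin ligase TRIM58 (-0.42) were lower too. Of 18 heme synthesis genes 5 were lower and 1 was higher. ALAS2, the first enzyme of red cell heme synthesis, was at 359, 360 and 353 in 1KI9, against 614, 653 and 614 in 1D5 (-0.81 ± 0.27, adjusted p = 0.044). The clones lay far apart for ALAS2, but the call was lost under most alternatives. HMOX1, which breaks heme down, was lower (-0.73 ± 0.15). In the membrane skeleton 4 of 16 were lower, with DMTN (-0.80) and EPB42 (-0.70) first, and 1 was higher. SLC4A1, the band 3 anion exchanger, was at 214, 208 and 216 in 1KI9 and 363, 344 and 357 in 1D5 (-0.73 ± 0.38) without passing the test (adjusted p = 0.20). Its clones did not overlap, and the spread behind that SE was pooled over day-4 and expansion groups.

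Erythroid transcription factors and cofactors had 7 of 28 members lower and 2 higher. E2F2 (-0.75), MAFK (-0.49), TAL1 (-0.39) and GFI1B (-0.37) were lower. MYB, a factor of cycling progenitors that falls during maturation, was at 112, 106 and 117 in 1KI9, against 75.9, 68.0 and 74.2 in 1D5, and 24.2 to 25.2 in FL (0.61 ± 0.10, SE, limma adjusted p = 0.00021). SPI1 was the other higher member. KLF1 (-0.17, adjusted p = 0.20), NFE2 (-0.21, adjusted p = 0.12) and the gamma globin repressor BCL11A (0.15, adjusted p = 0.56, with overlapping clones) were not called.

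Of 12 interferon-induced genes tested, 7 were lower in 1KI9 and 0 higher, with a median of -0.51. Across the alternatives 6 to 10 were lower and 0 to 3 higher, the 3 with a common total. For ISG15, IFI6 and the IFIT genes 1D5 lay farther above FL than 1KI9 did. ISG15, a ubiquitin-like protein, was at 15.3, 14.7 and 13.04 in 1KI9, against 43.9, 54.4 and 45.5 in 1D5, and 10.7 to 13.6 in FL (-1.67 ± 0.15, SE, limma adjusted p = 3.9e-07). The values of 1KI9 reached into those of FL, and every 1D5 library lay well above. IFIT2, which binds RNA, was at 1.66, 1.56 and 1.30 in 1KI9, against 8.61, 8.55 and 8.54 in 1D5, and 0.18 to 0.30 in FL (-1.93 ± 0.08, adjusted p = 1.6e-11). IFIT3 was at 1.34, 1.21 and 1.06 in 1KI9, against 5.90, 6.5 and 6.65 in 1D5 (-1.74 ± 0.08). The list also held IFIT1 (-0.96), IFI6 (-0.76) and the factors IRF1 (-0.58) and IRF7 (-0.43), both of which were highest in FL. Among the 15 lowest genes stood the antiviral OASL (-1.83 ± 0.08) and RSAD2, or viperin (-1.67 ± 0.13), and RSAD2 had FL at 14.95 to 17.3 near the 1D5 values of 19.6 to 22.8.

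Promoter windows are shown for 4 interferon-induced genes called lower. Each window is 70 bases of RefSeq sequence on GRCh38.p14, written 5′ to 3′ on the gene's strand, and capitals mark TTTC, any 2 bases and TTTC, or the reverse complement with GAAA at both ends, the core of the element bound by interferon-activated factors. The windows are chr10:89392477-89392546 (plus strand) for IFIT1, chr10:89327811-89327880 (plus) for IFIT3, chr1:1013354-1013423 (plus) for ISG15 and chr1:27672309-27672378 (minus) for IFI6.
IFIT1: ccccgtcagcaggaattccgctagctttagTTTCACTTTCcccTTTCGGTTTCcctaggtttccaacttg
IFIT3: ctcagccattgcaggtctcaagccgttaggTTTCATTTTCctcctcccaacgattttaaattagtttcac
ISG15: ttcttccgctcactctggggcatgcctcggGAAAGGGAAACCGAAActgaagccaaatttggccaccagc
IFI6: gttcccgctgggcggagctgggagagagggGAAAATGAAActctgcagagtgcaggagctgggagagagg
In ISG15 the capitals cover a pair of overlapping matches. Counting both strands of the window from 250 bases before to 50 after the start, the motif was present in 4 of the 5 interferon-induced genes called lower that have a promoter in the table (IFIT1, IFIT3, ISG15, IFI6, but not IRF1), in 2.67% of the 8803 tested genes with a promoter and in 3.65% of all 27305 promoters. IFIT2 and IRF7 were not matched. A match describes these letters and is not evidence of a bound site. The motif was chosen after the values had been seen, for a list already made of interferon-induced genes. Its share among them therefore says nothing about the clone difference. Listed genes not called lower were not counted beside them.

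GATA motifs were searched in the same windows, as AGATAA or TGATAA on either strand, since both clones carry an altered GATA1. They were present in 108 of 1086 promoters of genes called higher (9.94%), in 55 of 548 of genes called lower (10%) and in 679 of 8803 of all tested genes (7.71%). Among genes at least 2-fold higher 11 of 70 held one (15.7%), and among those at least 2-fold lower 5 of 36 (13.9%). Over all promoters of the table, which include many genes silent here, the share was 16.6%. Windows of 66 bases are given for a gene of each kind described above, with the motif or its complement TTATCT in capitals, from chr6:13924254-13924319 (plus) for RNF182, chr1:159302184-159302249 (plus) for FCER1A, chr4:94342912-94342977 (minus) for HPGDS and chr1:25272403-25272468 (plus) for RHD.
RNF182: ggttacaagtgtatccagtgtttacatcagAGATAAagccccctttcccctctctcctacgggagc
FCER1A: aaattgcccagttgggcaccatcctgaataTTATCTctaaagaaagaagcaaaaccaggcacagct
HPGDS: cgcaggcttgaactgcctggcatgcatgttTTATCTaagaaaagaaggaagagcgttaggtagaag
RHD: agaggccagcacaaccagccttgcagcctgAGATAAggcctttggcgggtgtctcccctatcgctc
RNF182, FCER1A and HPGDS were higher in 1KI9 and RHD was lower, so the motif stood in genes of both directions.

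Genes of the integrated stress response, which cells switch on when translation initiation is restrained, had 10 of 18 members lower in 1KI9 and 0 higher, with a median of -0.30. ATF3 was at 1.74, 1.56 and 1.78 in 1KI9, against 5.49, 5.10 and 5.48 in 1D5, and 4.05 to 4.62 in FL (-1.24 ± 0.13, SE, limma adjusted p = 2.4e-06). For ATF3 the values of 1D5 lay near FL and those of 1KI9 far below. The factor ATF4 itself was at 282, 282 and 266 in 1KI9, against 322, 359 and 343 in 1D5 (-0.30), and its targets CHAC1 (-0.79), NUPR1 (-0.72), TRIB3 (-0.69), DDIT4 (-0.66) and DDIT3 (-0.56) were lower. Across the alternatives 9 to 11 members were lower and 0 to 3 higher, the 3 with a common total.

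Secreted factors had 5 of 12 members lower and 2 higher. GDF15, released by stressed cells and by erythroblasts, was at 454, 430 and 376 in 1KI9, against 726, 758 and 712 in 1D5, and 772 to 876 in FL (-0.80 ± 0.17, SE, limma adjusted p = 0.0033). CSF1, the macrophage growth factor, was at 211, 214 and 208 in 1KI9, against 317, 322 and 322 in 1D5, and 1.26 to 1.42 in FL (-0.60 ± 0.09). Both clones thus carried CSF1 far above FL, 1D5 the more so. CXCL2 (-0.56) and CXCL3 (-0.54) were lower along with CCL5, but the chemokine CXCL8 was called higher. GDF11 was the other higher member, at 21.5, 22.1 and 20.01 in 1KI9 against 10.9, 11.1 and 10.7 in 1D5 (0.90).

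Mitochondrially encoded transcripts made up 18.8% ± 0.479 of the total in 1KI9 and 16.5% ± 0.521 in 1D5 (SD, n = 3 each, exact permutation p = 0.1, the smallest possible), with FL at 9.05% on average. With the globins taken out of the total the shares were 21.6% in 1KI9 and 20.6% in 1D5 and overlapped (exact permutation p = 0.2). None of the 13 mitochondrially encoded genes was called on its own, at a median of 0.09, while across alternatives 0 to 4 were higher. In complex I, 2 of 37 genes were higher and 0 lower, and in complexes II to V 4 of 39 were higher and 1 lower. Both counts depended on the scaling: with all libraries rescaled to a common total, 13 complex I genes and 14 of complexes II to V were higher. In complexes II to V, 8 were higher without 1D5 replicate 2, and 1 was higher without 1KI9 replicate 2, without 1D5 replicate 3 or with median-of-ratios scaling. That scaling gave 0 in complex I.

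IDH2, the mitochondrial isocitrate dehydrogenase, was at 56.5, 54.5 and 53.7 in 1KI9, against 28.0, 32.9 and 28.7 in 1D5, and 15.3 to 15.96 in FL (0.86 ± 0.10, SE, limma adjusted p = 6.9e-06). The glucose transporter SLC2A3 was at 30.5, 28.96 and 30.8 in 1KI9, against 12.6, 11.3 and 12.4 in 1D5 (1.25 ± 0.20), in contrast with SLC2A1, which was lower. PSAT1, an enzyme of serine synthesis, was at 0, 0.03 and 0.01 in 1KI9, against 2.01, 2.13 and 1.82 in 1D5, and 1.49 to 1.63 in FL (-1.56 ± 0.14). For PSAT1, 1KI9 was the clone farther from FL. HMGCS1, of cholesterol synthesis, was higher (0.94), although its list had a median of -0.19 with 1 of 23 called higher and 0 lower. When only the day-4 libraries were fitted, 12 of the 23 were called lower. Of 23 nucleotide synthesis genes 5 were higher and 0 lower (2 to 9 higher across the alternatives, 2 without 1KI9 replicate 3), and of 20 fatty acid oxidation genes 5 were higher and 1 lower (3 to 9 higher).

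Of 25 actin and actin-binding genes 6 were higher and 1 lower, with LCP1 and CAPG leading (5 to 11 higher across the alternatives). CAPG, an actin-capping protein, was at 126.8, 123.5 and 118.7 in 1KI9, against 56.9, 62.2 and 58.1 in 1D5, and 5.51 to 5.77 in FL (1.05 ± 0.14, SE, limma adjusted p = 4.6e-05). Among 25 genes of the TCA cycle and pyruvate entry 5 were higher and 3 lower (4 to 13 higher across the alternatives), and of 26 glycolytic genes 4 were higher and 3 lower (1 to 9 higher), with the aldolase ALDOC (-1.06) lowest. Glucocorticoid targets had 2 of 13 higher and 4 lower, among them TSC22D3, or GILZ, at 303, 296 and 278 in 1KI9 against 405, 418 and 411 in 1D5 (-0.49). Antioxidant genes had 0 of 20 higher and 5 lower, with 0 to 3 higher and 3 to 8 lower across the alternatives. Ribosome biogenesis had 5 of 25 higher and 1 lower, and from 0 higher, without 1KI9 replicate 3 or without 1D5 replicate 2, to 14 with a common total. In iron handling, 2 of 16 were higher, the receptor TFR2 (0.38) and the exporter ferroportin, SLC40A1 (0.38), and 3 were lower, with the ferritin heavy chain FTH1 at 8724, 8367 and 7104 in 1KI9 against 10525, 11625 and 10456 in 1D5 (-0.43).

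DNA replication genes had 0 of 29 called in either direction, mitotic genes 1 of 30 higher (CKAP2, 0.52) and cytosolic ribosomal protein genes 1 of 79 lower (RPL41, -0.25), where rescaling to a common total gave 12 higher and 0 lower. The replication list had 0 genes called in limma's test here, and at most 2 in either direction under the alternatives. The mitotic list had 0 to 6 genes called lower under the alternatives. Targets of p53 had 2 of 22 higher and 2 lower at day 4: CDKN1A, the p21 inhibitor of the cell cycle, was at 1012, 1016 and 935 in 1KI9 and 949, 998 and 938 in 1D5 (0.04, adjusted p = 0.90), with overlapping values.

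Expansion libraries of the same clones, which are other libraries, show which day-4 differences stood there too. In expansion 3690 of 11042 genes (33.4%) were higher in 1KI9 and 791 (7.16%) were lower. Of the 1368 genes higher at day 4 and measured in both conditions, 887 (64.8%) were higher in expansion and 21 (1.54%) were lower. Among all genes measured in both, 33.5% were higher and 7.14% lower in expansion. Of the 718 genes lower at day 4, 138 (19.2%) were lower in expansion and 178 (24.8%) were higher. Among genes with at least a 2-fold difference, 84 of the 90 higher at day 4 were also higher in expansion, and 24 of the 52 lower (46.2%) were also lower. With median-of-ratios scaling, where 22.3% of all genes were higher and 20.3% lower in expansion, 57.8% of higher calls were shared, while of lower calls 28.9% were shared and 16.4% were opposite. Across 11015 genes the differences of the 2 conditions had a Pearson r of 0.459, a description over genes, which are not independent replicates.

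**Figure D4:**
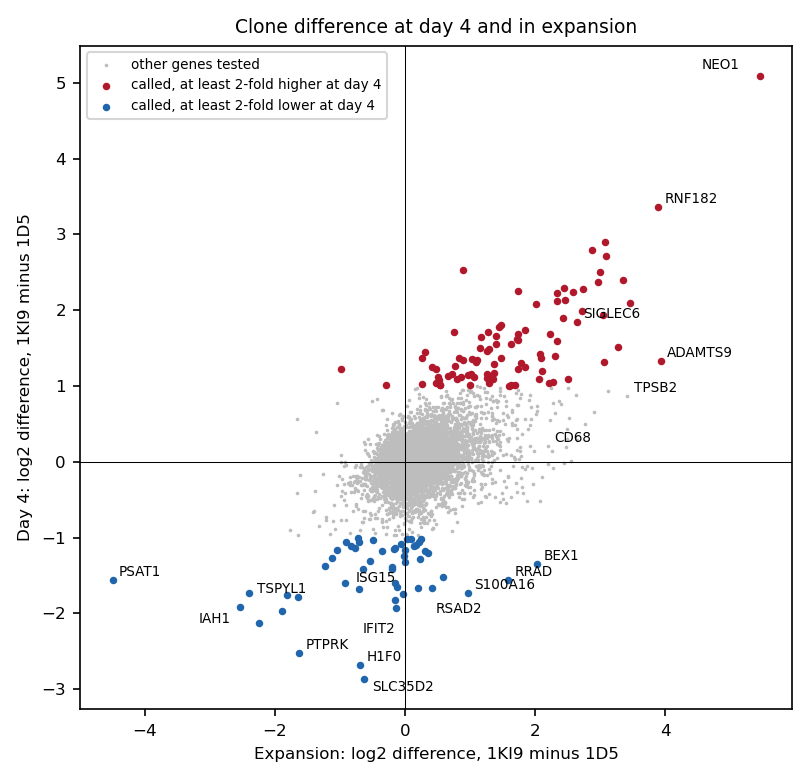
Log2 difference, 1KI9 minus 1D5, in expansion (x axis) and at day 4 (y axis) for each gene measured in both; red and blue mark genes called and at least 2-fold higher or lower at day 4. Of the 90 red genes 84 were also called higher in expansion, while many blue genes, IFIT2, ISG15 and RSAD2 among them, lie near or right of 0 in expansion.

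A test of the difference of differences (the interaction, day-4 difference minus expansion difference) called 2423 of 11015 genes (22%): 483 had the day-4 difference above the expansion difference and 1940 below. NEO1 (5.10 at day 4, 5.45 in expansion), PAPSS1 (2.90 and 3.07) and VSIG4 (2.79 and 2.87) had differences of similar size, with interactions not called. Interferon-induced genes had 0 of 12 lower in expansion and 5 higher, against 7 lower at day 4, and 10 had a called interaction below 0. ISG15 averaged 5.15 TPM in 1KI9 and 4.44 TPM in 1D5 in expansion (0.20, limma adjusted p = 0.30), where every clone was low. In the stress response list 5 genes were higher and 3 lower in expansion, and 10 had a called interaction below 0. Lysosomal genes were higher in both conditions, 17 of 29 at day 4 and 24 of 29 in expansion. LAMP2 differed by 0.49 at day 4 and by 1.64 in expansion, with an interaction of -1.15.

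Targets of p53 separated the conditions: 22 of 22 were higher in 1KI9 in expansion, against 2 of 22 at day 4, and 20 had a called interaction below 0. CDKN1A averaged 314 TPM in 1KI9 and 99.6 TPM in 1D5 in expansion (1.68 ± 0.16, SE). DNA replication and mitosis genes were lower in 1KI9 in expansion, 19 of 29 and 17 of 30. At day 4 neither list had a gene called lower in the main fit, and under the alternatives up to 2 and 6 were. Expansion and day-4 values were scaled separately, so contrasts within a condition are set side by side and levels are not compared across them. Condition, medium and any sequencing batch cannot be told apart.

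**Figure D5:**
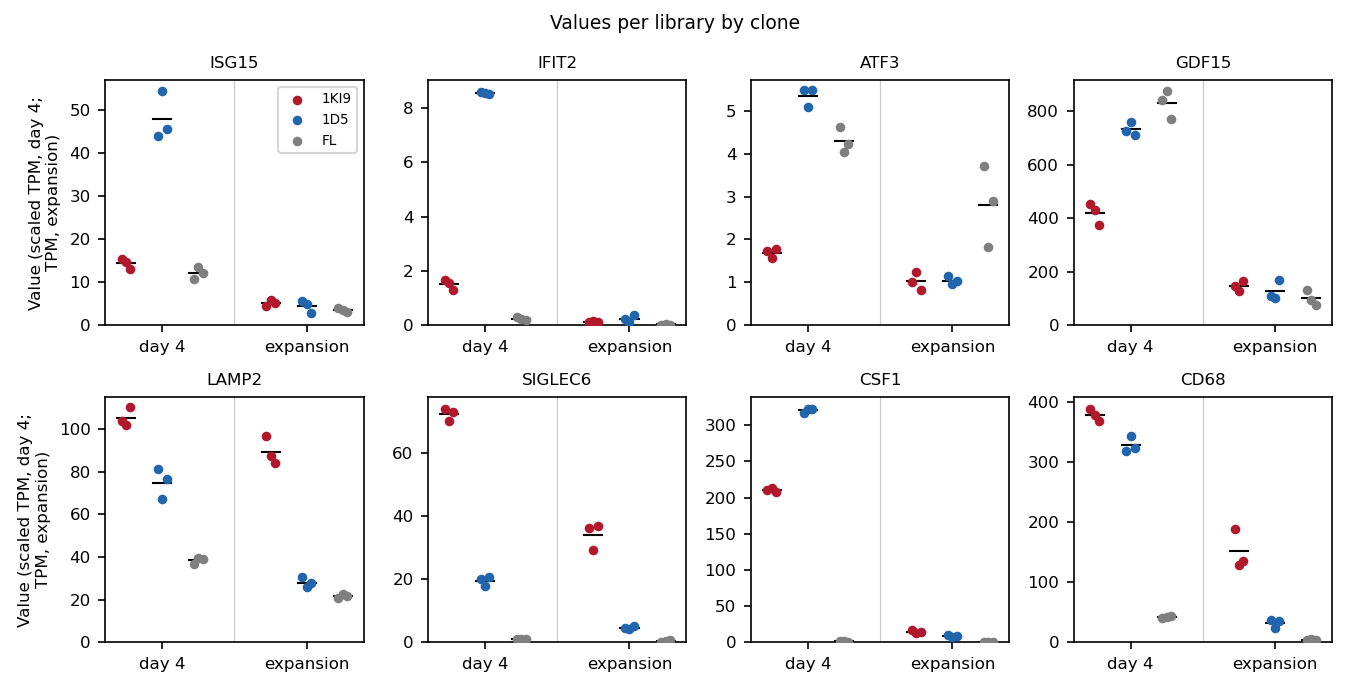
Values per library of 8 genes at day 4 (scaled TPM, left of each panel) and in expansion (TPM, right), for 1KI9, 1D5 and FL; horizontal lines are means of 3 libraries. ISG15, IFIT2, ATF3 and GDF15 lie lower in 1KI9 than in 1D5 at day 4 with the clones close in expansion, and LAMP2 and SIGLEC6 lie higher in 1KI9 in both.

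Along the genome the differences were spread out. Chromosome medians ran from -0.01 (chromosome 22) to 0.13 (chromosome 13, with 43 genes higher and 4 lower of 183). Over 453 runs of 25 neighbouring tested genes the medians ran from -0.21 to 0.23, and 0 runs passed 0.5 in size. The lowest run was chr11:167784-809753 (hg38), from BET1L to PIDD1, with 1 gene higher and 11 lower, among them the plakophilin PKP3 (-1.38) and EPS8L2 (-0.81). The highest was chr19:52031379-54109257, from ZNF432 to NDUFA3, with 9 higher and 1 lower, and 22 of its 25 genes carry zinc finger names.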

How the data were processed

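Poly(A) RNA libraries of 3 HUDEP1 clones were grouped by clone and condition from the labels, 3 libraries per group. The authors deposited a table of 13358 genes. Its expansion columns are TPM as deposited; the deposited day-4 columns are a TPM-like signal whose library sums, 814583 to 1081251, show a further scaling, by a method that no source used here states. The design had assumed TPM throughout, and the same log-scale test was kept. Trim Galore 0.60, STAR 2.7 and RSEM 1.31 are named as tools, and hg38 as the build, per the submitters' processing notes. Strandedness in counting is not stated. Reads of near-identical transcripts are shared out by RSEM. TPM and scaled TPM keep no depth, so no counting intervals were computed, and 0 was read only as a listed 0. In day-4 libraries 312 genes were listed at 0 throughout, and in expansion libraries 724. Names and coordinates came from GENCODE 29, which matched 13328 genes.

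The scale was log2(value + 1), on which low genes change less than in truth. The model was fitted with limma 3.58.1 in R 4.3.3: group means over all 18 libraries (12 residual degrees of freedom), a variance trend, genes reaching 1 in 3 or more libraries, Benjamini-Hochberg adjustment over all tested genes and a threshold of 0.05. Shares of the total were compared by exact permutation over libraries. The fit was tested on simulated data. Members and gene lists were chosen with earlier results of these data known. Of 43 gene lists, the text gives those on red cells, other blood cells, stress, metabolism and growth; all stay descriptions, with no set test. Named genes were the 15 largest called differences in each direction among genes whose clones do not overlap and whose mean is at least 5 in the higher clone, up to 4 called members per list with the largest difference, members needed to describe a list, a few fixed genes, and genes chosen after their values were seen (the histones, metallothioneins and zinc finger genes, DDX58 and ITLN1). Promoters came from RefSeq (GRCh38.p14). Alternatives were other scalings, pseudocounts, filters, fits on fewer libraries, a replicate block and leaving out each day-4 library. Some items are not reported here.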

Additional observations from a re-analysis of the deposited data

Results flagged for a closer look

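Genes named for their day-4 difference were picked out here where limma's test of the difference of differences (day-4 difference of 1KI9 minus 1D5, less the same difference in expansion) passed, on the log2 scale, together with the 10 genes that had the largest such value. Interferon-related genes lower in 1KI9 at day 4 gave -1.80 for IFIT2, -1.67 for OASL, -1.71 for IFIT3 and -2.08 for RSAD2. In expansion RSAD2 was low in both clones and in the opposite order, averaging 2.57 TPM in 1KI9 and 1.68 TPM in 1D5.

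Some other genes with a more negative log2 difference at day 4 than in expansion were SLC35D2 (-2.23), H1F0 (-1.99), PTPRK (-0.90) and TACC2 (-0.98). SLC35D2, H1F0 and PTPRK were near or below 1 in 1KI9 at day 4. With 1 added, their difference depends strongly on the 1D5 level, so a larger fold deficit at day 4 is not shown. S100A16 (-2.70), BEX1 (-3.38) and RRAD, a small GTPase (-3.15), turned round between conditions. RRAD had values of 16.2, 15.3 and 15.2 in 1KI9 and 46.4, 50.5 and 47.0 in 1D5 at day 4, and averaged 12.7 TPM in 1KI9 and 3.77 TPM in 1D5 in expansion. IAH1 (0.62) and TSPYL1 (0.67) were lower in 1KI9 in both conditions, less so at day 4. PSAT1 (2.93) was also lower in both, and averaged 0.00667 TPM in 1KI9 and 21.8 TPM in 1D5 in expansion. It was near 0 in 1KI9 in both conditions, so with 1 added its difference follows the 1D5 level and does not show a smaller deficit at day 4.

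Among genes higher in 1KI9 in both conditions the day-4 difference was smaller for RNF182 (-0.53), GPNMB (-0.94), CCNA1 (-0.60), ADAMTS9 (-2.60) and TPSB2 (-2.56), and larger for MS4A6A (1.64). IL1RL1, the interleukin-33 receptor of mast cells (-2.59), PROCR (-2.54), PTGS1, or cyclooxygenase-1 (-2.46), and TRIM63 (-2.38) were higher in 1KI9 in expansion. At day 4 PTGS1 had values of 54.9, 53.3 and 57.5 in 1KI9 and 56.1, 54.4 and 56.9 in 1D5, and the day-4 test did not pass for IL1RL1, PROCR or PTGS1. Day-4 and expansion values were scaled separately; the part of that in these differences was not tested.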

How the results depend on the processing

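Of 181 named genes set against 20 alternatives, 3289 of 3618 comparisons kept their direction and their side of the threshold, 297 lost the call, 32 gained it and 0 changed direction; the 30 genes of largest difference kept both throughout. Rescaling all libraries to a common total gave 2704 genes higher and 482 lower, with 2587 genes having 1D5 between 1KI9 and FL. Fitting the 9 day-4 libraries alone gave 1198 lower. With a pseudocount of 0.1, 174 genes were at least 2-fold higher and 141 lower, and with a pseudocount of 5, 35 and 24. Leaving out a day-4 library gave 817 to 1298 higher and 465 to 699 lower (lowest without 1KI9 replicate 3), 87 to 91 and 54 to 61 at least 2-fold higher and lower, 868 to 1383 with 1D5 between, 209 to 313 with 1KI9 between, 205 to 304 with FL between and 1863 to 2500 with a condition-dependent difference. Over left-out libraries the globin difference was -7.18 to -6.54 points and the mitochondrial one 2.07 to 2.63. With all libraries, the globin difference was -7.84 in a total without mitochondrial genes, and the mitochondrial one 1.04 in a total without globins. The causes were not tested.

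Same-numbered replicates of the clones deviated together with r of -0.03, 0.43 and 0.27, and not every library correlated best with its own number, so the numbers were not taken as pairs. With replicate number as a block, 1407 genes were higher, 774 lower, 91 and 59 at least 2-fold, and 2467 had a condition-dependent difference; of the named genes 166 were called without it, 163 with it and 160 in both. Read depth is unknown and limits statements on low genes.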

Other observations

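Gene families grouped after their values were seen gave further contrasts. Of 31 canonical histone genes tested, 16 were lower in 1KI9 than in 1D5 at day 4 and 0 higher, with a median of -0.44, where 6.69% of all tested genes were lower. In expansion 10 were higher and 0 lower, near the 33.4% of all genes called higher there, and 16 had a called interaction below 0. Between scalings 11 to 18 were lower. HIST1H1C, a linker histone, was at 68.4, 60.2 and 57.0 in 1KI9, against 126, 148 and 128 in 1D5, and 315 to 366 in FL (-1.10 ± 0.15, SE, limma adjusted p = 3.7e-05). HIST1H3E was at 0.53, 0.66 and 0.57 in 1KI9 and 3.28, 2.20 and 2.15 in 1D5 (-1.15). Canonical histone transcripts of cycling cells carry no poly(A) tail, and these libraries were poly(A)-selected, so the values cover the polyadenylated fraction. The run chr6:26195595-27865798, which holds 16 of these genes, had 2 higher and 6 lower at a median of -0.21.

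Metallothioneins, which bind zinc and copper, were lower in 4 of 5 tested: MT4 at 4.26, 4.58 and 2.95 in 1KI9 against 21.7, 32.7 and 29.4 in 1D5, MT1G (-1.09), MT1X (-0.71) and MT2A (-0.66). MT1E was at 2.08, 2.22 and 1.95 in 1KI9 and 1.41, 1.53 and 1.85 in 1D5 (0.25, limma adjusted p = 0.056), and passed when libraries were rescaled to a common total. MT4, MT1G, MT1X and MT1E were listed at 0 throughout expansion in both clones, so those libraries added no spread to their pooled estimate.

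Of 397 zinc finger genes 59 were higher and 12 lower, where 12.5% of all tested genes were higher and 6.69% lower. With median-of-ratios scaling the counts were 47 higher and 21 lower. On chromosome 19, 33 of 178 were higher and 5 lower, at a median of 0.14. ZNF772 (1.67) and ZNF550 (1.48) lie in the run chr19:57320509-57889074, where 8 of 25 genes were higher and 0 lower. Of the HLA and antigen presentation genes, HLA-C was at 13.9, 13.8 and 13.6 in 1KI9, against 30.1, 32.1 and 28.8 in 1D5, and 31.3 to 35.5 in FL (-1.08 ± 0.15), while HLA-B was low in both clones, at 2.27, 2.05 and 2.13 in 1KI9 and 1, 1.5 and 1.03 in 1D5, against 39.8 to 44.9 in FL. HLA genes vary in sequence and share reads, so their levels are uncertain.

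EMC10, part of a complex that inserts membrane proteins, was listed at 0 in every 1KI9 library and at 0.02, 0.04 and 0.03 in 1D5, against 15.9 to 17.9 in FL, so it did not separate the clones. TMSB4X, which sequesters actin, was at 844, 877 and 799 in 1KI9 and 711, 745 and 692 in 1D5 (0.23, limma adjusted p = 0.086), against 0.12 or less in FL. UNC13B was near 0 in 1KI9, at 0.06, 0.06 and 0.05, and at 3.32, 2.93 and 3.15 in 1D5, with FL at 0 to 0.05 (-1.97), and 1D5 was the clone farther from FL. ITLN1, a lectin, was at 0.44, 0.38 and 0.29 in 1KI9 and 1.56, 1.95 and 1.82 in 1D5 (-1.02).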
